A study of Mus musculus with 16 samples.

Results

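The 10 genes described here mark the macrophages of the testis: Csf1r, Mrc1, Adgre1, Cd68, C1qa, C1qb, C1qc, Ccr2, Cx3cr1 and P2ry12. They were found in the deposited tables by their Ensembl gene IDs, with the version suffix removed, which named 10 of the 55414 rows. Whole-testis RNA of mice aged 14 or 16 postnatal days (P14, P16) gave 16 libraries. The groups were a control group, a Cre control group and a conditional knockout (cKO) of Ythdc2, an RNA helicase of germ cells; by the labels, all of them had tamoxifen (10 mg/ml) on the days P12 and P13. The labels name neither the driver of the Cre recombinase nor the alleles that the control and the Cre control mice carry. Each stage had 2 libraries from controls and 3 from cKO mice, and Cre controls gave 2 libraries (P14) and 4 libraries (P16). Ribosomal RNA was removed with one kit (Ribo-Zero, "the first kit") in the controls and in cKO libraries 1 and 2, and with another (NEBNext, "the second kit") in the Cre controls and cKO library 3 of each stage. The column names carry 3 sequencing run codes. All first-kit libraries share 1 run, so kit and run cannot be told apart between the kits. In the second kit, Cre control libraries 2 to 4 of P16 share a run, and the other libraries share another. The labels do not say that replicates came from separate animals, so the p-values measure the spread between these libraries, which may be in part technical.

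Macrophages are the main immune cell of the testis, where they sit between the tubules beside Leydig cells and along the tubule wall. Their survival depends on the receptor encoded by Csf1r, which binds the growth factors CSF1 and IL34. They take up debris and glycoproteins, partly through the mannose receptor encoded by Mrc1, and they are a main source of C1q, the molecule that starts the classical complement cascade and is built from the products of C1qa, C1qb and C1qc. Ccr2 and Cx3cr1 encode chemokine receptors of monocytes and the macrophages they give rise to, and P2ry12 encodes an ADP receptor best known from microglia.

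Promoter windows of 4 of these genes are shown because the genes rose together in cKO testis at P16. Each runs 5′ to 3′ from 250 bases before to 50 bases after the gene's start (RefSeq, GRCm38.p6). RefSeq's table held a window for 7 of the 10 genes. Capitals mark GAGGAA, the core letters of sites for the myeloid factor PU.1, and TGANTCA, those of AP-1, on either strand.
Mrc1, chr2:14229164-14229463, plus strand: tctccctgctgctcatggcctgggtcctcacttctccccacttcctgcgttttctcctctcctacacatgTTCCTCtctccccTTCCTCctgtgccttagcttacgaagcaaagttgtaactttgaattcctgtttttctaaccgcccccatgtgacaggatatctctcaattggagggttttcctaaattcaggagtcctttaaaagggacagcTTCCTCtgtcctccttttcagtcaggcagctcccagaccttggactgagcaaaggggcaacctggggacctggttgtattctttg
Cd68, chr11:69666121-69666420, minus strand: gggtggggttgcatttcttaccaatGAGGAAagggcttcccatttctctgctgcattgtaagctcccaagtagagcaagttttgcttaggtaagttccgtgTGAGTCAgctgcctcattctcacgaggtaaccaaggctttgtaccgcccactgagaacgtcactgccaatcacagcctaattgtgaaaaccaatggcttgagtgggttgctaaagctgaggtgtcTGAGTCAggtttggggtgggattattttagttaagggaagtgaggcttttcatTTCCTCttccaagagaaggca
C1qb, chr4:136886151-136886450, minus strand: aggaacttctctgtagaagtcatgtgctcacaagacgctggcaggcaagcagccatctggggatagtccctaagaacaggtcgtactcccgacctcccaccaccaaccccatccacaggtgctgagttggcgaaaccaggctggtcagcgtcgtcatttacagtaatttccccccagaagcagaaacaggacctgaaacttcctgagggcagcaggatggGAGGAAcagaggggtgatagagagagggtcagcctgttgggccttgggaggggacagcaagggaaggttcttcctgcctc
C1qc, chr4:136892865-136893164, minus strand: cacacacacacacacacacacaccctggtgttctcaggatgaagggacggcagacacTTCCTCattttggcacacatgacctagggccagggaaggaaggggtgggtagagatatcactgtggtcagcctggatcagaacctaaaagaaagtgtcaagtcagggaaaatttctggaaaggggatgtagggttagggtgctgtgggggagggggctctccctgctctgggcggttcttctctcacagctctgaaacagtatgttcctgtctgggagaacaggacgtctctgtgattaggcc
GAGGAA was found 3 times in the Mrc1 window, 2 times in that of Cd68 and 1 time each in those of C1qb and C1qc. It was in 4 of the 7 windows of these genes and in 28.3% of all 32851 promoter windows. TGANTCA, which reads the same on both strands, was found 2 times in the Cd68 window, in 1 of the 7, and in 7.81% of all windows. GAAANNGAA, letters bound by interferon regulatory factors, was in 1 of the 7 (Ccr2) and in 8.56% of all windows. The motifs share no bases in the windows printed. A match describes the letters only.

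Reads on genes numbered 22220565 to 27531529 a library for the first kit and, for the second, 14494867 to 23200252. Ythdc2 was checked first: it stood at 83.7 to 102.9 CPM (reads per library size, scaled by TMM within a kit) in the 4 controls, at 71.0 to 134.8 CPM in the 6 Cre controls and at 11.6 to 31.7 CPM in the 6 cKO libraries, each cKO library lying below each control of its kit. In bulk RNA, fewer macrophages and less macrophage RNA per cell cannot be told apart. Markers of some other blood cells were almost absent: 6 of 6 mast cell genes and 6 of 7 neutrophil genes had under 10 reads in every library, with Fcer1a and Ly6g at 0, and so had 7 of 11 lymphocyte genes. Erythroid genes were present, with all 5 over 10 reads in some library and a summed level of 19.1 to 126.4 CPM. Among the 7 monocyte genes, 2 had under 10 reads in every library, and Ly6c2 stood at 0.239 CPM or less. Others were present and the list summed to 49.02 to 91.6 CPM, a sum that does not show which cells held the RNA. Siglech, a microglial gene, stood at 0.202 CPM or less, while Tmem119, also used as a microglial marker, stood at 8.31 to 16.9 CPM.

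All 10 genes were detected in each library and passed the filter on low values in each comparison. Ccr2, at 3 and 4 reads in the P14 Cre controls, passed it there only through the other libraries compared. Ordered by level per kilobase of exon, over the 8 first-kit libraries, the C1q genes led: C1qa had a median of 16.002 and C1qb of 15.7 CPM per kilobase, with ranges of 9.99 to 19.5 and 10.4 to 22.8. Mrc1 (10.2), C1qc (9.40) and Csf1r (5.12) followed. Adgre1 (3.48), Cd68 (3.21), Cx3cr1 (1.53), P2ry12 (0.667) and Ccr2 (0.215) formed the lower part. Within the first kit the order was not firm between C1qa and C1qb, where C1qa was higher in 5 of 8 libraries, nor between Adgre1 and Cd68, also 5 of 8. Mrc1 exceeded C1qc in 7 of 8, and in each other pair of first-kit neighbours the upper gene was higher in 8 of 8 libraries. The second kit gave the same order of medians, except that C1qb led C1qa (7 of 8 libraries) and Cd68 led Adgre1 (5 of 8). There Mrc1 exceeded C1qc in only 5 of 8 libraries. These levels rest on GENCODE M21 exon lengths, whereas the files were made with another annotation.

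**Figure D1:**
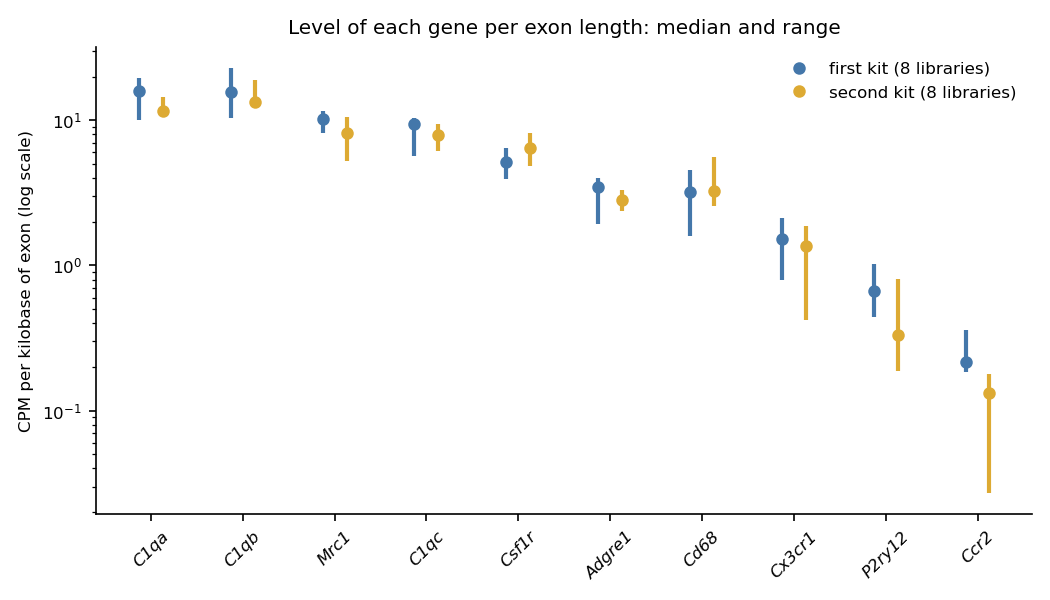
Level of each gene in CPM per kilobase of exon on a log axis, as the median (point) and range (line) over the 8 libraries of each kit. The C1q genes and Mrc1 lie at the top and Ccr2 at the bottom, with medians from 0.215 to 16.002 in the first kit.

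Csf1r, the growth factor receptor on which macrophages depend, was lower in the P16 controls than in any other first-kit library. With the first kit, Csf1r stood at 35.3 and 30.6 CPM in the P14 controls and at 23.5 and 22.6 CPM in the P16 controls, against 36.99 and 27.2 CPM in the cKO libraries at P14 and 29.7 and 29.4 CPM at P16. With the second kit, it stood at 47.1 and 37.1 CPM in the Cre controls at P14, at 30.7, 37.5, 28.1 and 36.9 CPM in those at P16, and at 35.2 (P14) and 38.5 CPM (P16) in the third cKO library. Both P16 controls lay below both P16 cKO libraries of their kit. In the second kit the cKO library at P16 was the highest of the P16 libraries, at 38.5 against 37.5 CPM in the nearest Cre control. Csf1r overlaps Hmgxb3 on the opposite strand, and the strand setting of the counting is not given in the sources used here, so reads of the overlap cannot be assigned.

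Mrc1, the mannose receptor, gave the most reads of the 10 genes in the first kit. First-kit levels of Mrc1 were 73.1 and 61.9 CPM (control, P14), 73.3 and 60.1 CPM (cKO, P14), 52.2 and 57.6 CPM (control, P16) and 68.6 and 67.9 CPM (cKO, P16). Second-kit levels were 33.4 and 53.2 CPM (Cre control, P14), 46.3, 54.01, 46.1 and 51.3 CPM (Cre control, P16), and 54.7 and 66.6 CPM (cKO, P14 and P16). The P16 cKO libraries of both kits lay above all P16 controls of their kit. Cre control library 1 at P14 was the lowest of the second kit.

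Adgre1 encodes the F4/80 antigen, the classical surface marker of mouse macrophages. First-kit levels of Adgre1 were 12.3 and 11.5 CPM (control, P14), 12.9 and 8.59 CPM (cKO, P14), 7.18 and 6.29 CPM (control, P16) and 11.03 and 11.7 CPM (cKO, P16). Second-kit levels were 7.64 and 9.85 CPM (Cre control, P14), 7.88, 10.6, 8.43 and 7.82 CPM (Cre control, P16), and 10.6 and 10.7 CPM (cKO, P14 and P16). The 2 P16 controls were the lowest of the 8 first-kit libraries. In the second kit, the P16 cKO library was above the highest Cre control only by the difference of 10.7 and 10.6 CPM.

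Cd68 encodes a lysosomal glycoprotein of phagocytes. First-kit levels of Cd68 were 4.09 and 4.87 CPM (control, P14), 5.75 and 4.87 CPM (cKO, P14), 2.01 and 2.40 CPM (control, P16) and 3.99 and 3.55 CPM (cKO, P16). Second-kit levels were 3.85 and 6.47 CPM (Cre control, P14), 4.21, 3.96, 3.21 and 4.11 CPM (Cre control, P16), and 6.97 and 4.06 CPM (cKO, P14 and P16). The 2 P16 controls were again the lowest of their kit. At P16 the second-kit cKO library lay inside the range of the 4 Cre controls. Cd68 rested on 50 and 66 reads in the P16 controls.

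The C1q genes encode the A, B and C chains of the complement starter. First-kit levels of C1qa were 16.6 and 20.3 CPM (control, P14), 17.3 and 16.7 CPM (cKO, P14), 10.4 and 11.2 CPM (control, P16) and 18.2 and 16.1 CPM (cKO, P16). Second-kit levels were 11.8 and 12.1 CPM (Cre control, P14), 11.9, 15.1, 11.1 and 13.6 CPM (Cre control, P16), and 12.03 and 14.7 CPM (cKO, P14 and P16). Both P16 controls lay below both cKO libraries. First-kit levels of C1qb were 16.99 and 24.8 CPM (control, P14), 17.2 and 17.5 CPM (cKO, P14), 12.2 and 11.3 CPM (control, P16) and 18.2 and 16.6 CPM (cKO, P16). Second-kit levels were 14.4 and 14.7 CPM (Cre control, P14), 14.3, 18.3, 14.2 and 14.03 CPM (Cre control, P16), and 17.2 and 20.6 CPM (cKO, P14 and P16). P14 control library 2 was the highest of its kit for C1qb, and the P16 cKO library of the second kit exceeded all 4 Cre controls. First-kit levels of C1qc were 18.9 and 20.1 CPM (control, P14), 18.9 and 17.9 CPM (cKO, P14), 12.3 and 10.9 CPM (control, P16) and 16.8 and 18.4 CPM (cKO, P16). Second-kit levels were 16.1 and 14.1 CPM (Cre control, P14), 12.3, 18.3, 11.8 and 14.4 CPM (Cre control, P16), and 16.8 and 16.5 CPM (cKO, P14 and P16). For C1qc the P16 cKO library of the second kit lay inside the range of the Cre controls, below Cre control library 2. Within a library, the CPM of C1qa, not corrected for length, was 0.701 to 1.01 times that of C1qb, and the CPM of C1qc was 0.800 to 1.11 times that of C1qb.

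The receptors Ccr2, Cx3cr1 and P2ry12 were scarce. First-kit levels of Ccr2 were 1.25 and 2.41 CPM (control, P14), 1.46 and 1.60 CPM (cKO, P14), 1.28 and 1.42 CPM (control, P16) and 1.45 and 1.72 CPM (cKO, P16). Second-kit levels were 0.183 and 0.270 CPM (Cre control, P14), 1.20, 1.11, 0.669 and 1.12 CPM (Cre control, P16), and 0.855 and 0.947 CPM (cKO, P14 and P16). Ccr2 rested on 3 and 4 reads in the P14 Cre controls and on 13 to 54 in the other libraries. The P14 Cre controls were the lowest of their kit. First-kit levels of Cx3cr1 were 5.47 and 9.60 CPM (control, P14), 8.34 and 5.35 CPM (cKO, P14), 3.57 and 7.38 CPM (control, P16) and 6.41 and 8.66 CPM (cKO, P16). Second-kit levels were 1.90 and 5.33 CPM (Cre control, P14), 6.68, 6.24, 5.89 and 8.36 CPM (Cre control, P16), and 6.05 and 7.85 CPM (cKO, P14 and P16). The replicates of Cx3cr1 were far apart, and Cre control library 1 at P14 was the lowest of its kit. First-kit levels of P2ry12 were 1.65 and 1.38 CPM (control, P14), 2.59 and 1.82 CPM (cKO, P14), 1.12 and 1.64 CPM (control, P16) and 1.75 and 2.19 CPM (cKO, P16). Second-kit levels were 0.489 and 0.809 CPM (Cre control, P14), 1.44, 0.476, 0.803 and 1.17 CPM (Cre control, P16), and 2.04 and 0.879 CPM (cKO, P14 and P16). P2ry12 rested on 8 to 64 reads a library, and its P16 groups overlapped only in the second kit. P2ry12 lies within Med12l, on the opposite strand, and the Cx3cr1 gene model overlaps 9 others, so the counting of both is uncertain.

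**Figure D2:**
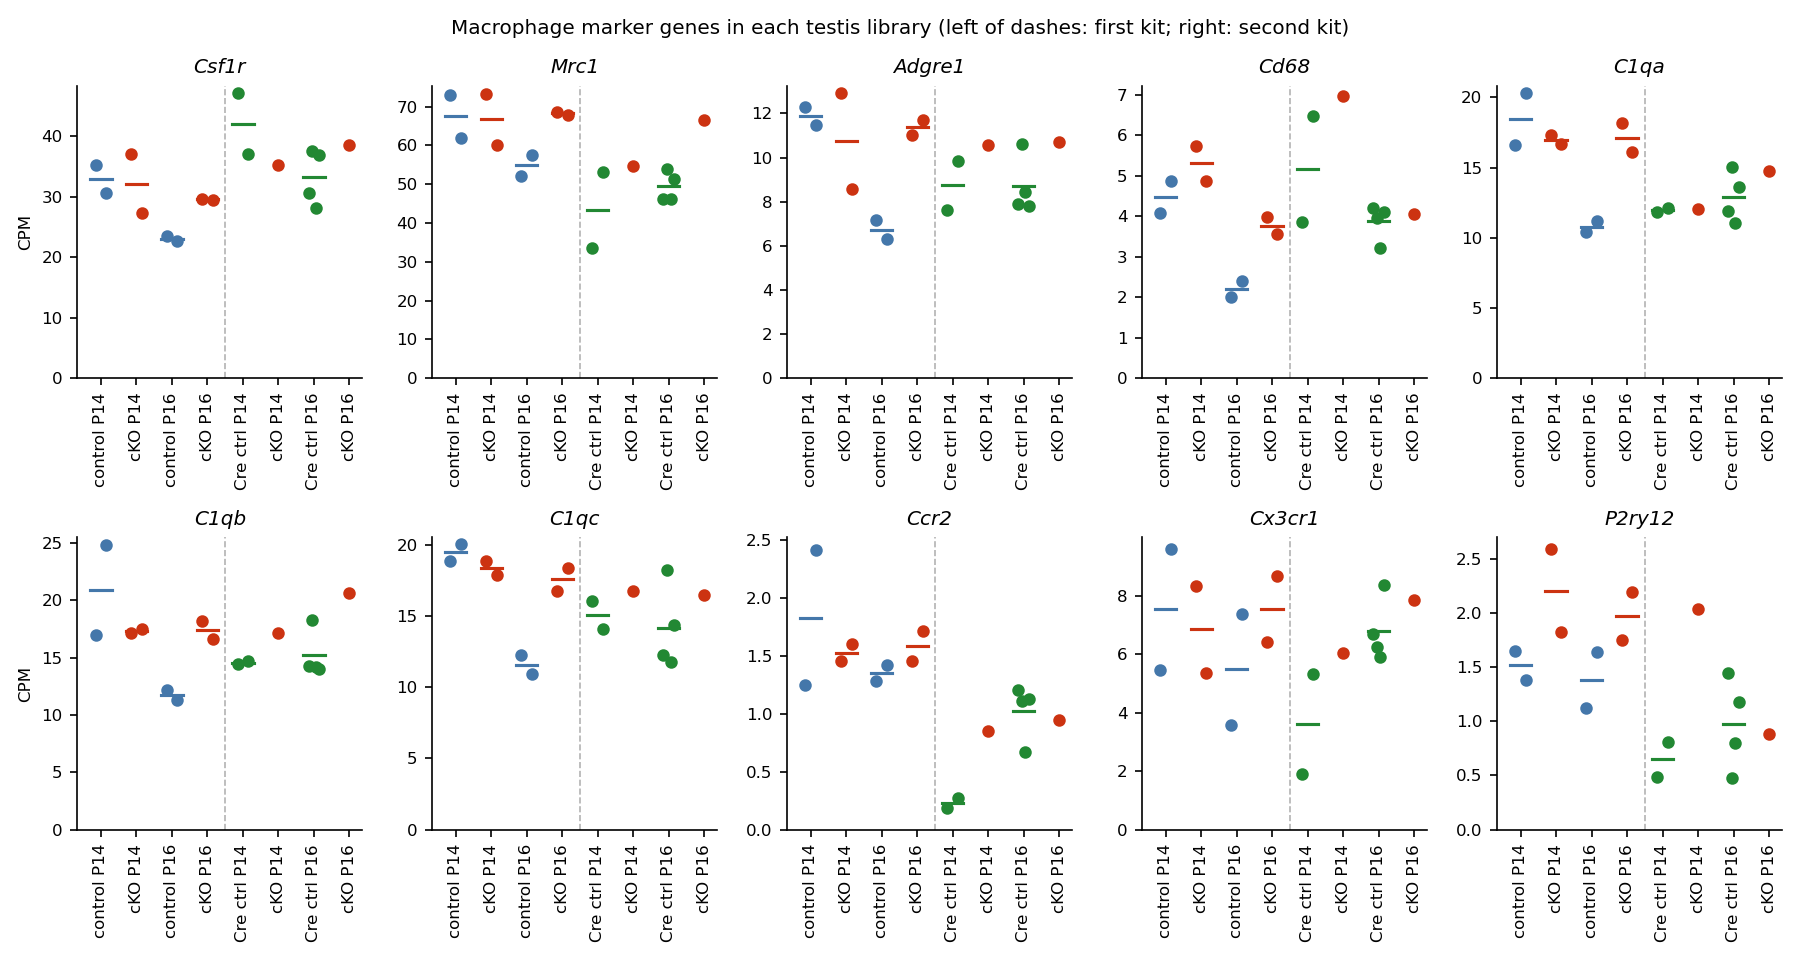
Level of each gene in CPM (linear axes from 0) in every library, by group, with the first kit left of the dashed line and the second kit right of it. Points are libraries, short lines are means of groups with 2 or more libraries. For Adgre1, Cd68 and the C1q genes, the P16 controls of the first kit lie below all other first-kit groups.

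The first comparison asked which genes differed between cKO and control testis at P16. Of the 10 genes, 7 were called higher and 0 lower (limma, adjusted p under 0.05, termed called). Over all 17986 genes tested, 18.6% were called higher and 19.9% lower, and the median log2 change was 0.00, whereas the median of the 10 genes was 0.55. All 10 changes were positive. For 9 of the 10, both cKO libraries lay above both controls, the exception being Cx3cr1. Over all 20304 genes with at least 10 reads in at least 2 libraries, 31.8% were so placed.

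The largest changes were those of Cd68 and Adgre1. Cd68 rose by 0.77 ± 0.18 (SE, adjusted p = 0.00499) on the log2 scale, and its mean was 1.71 times that of controls. Adgre1 rose from 6.73 ± 0.632 CPM (SD, n = 2) to 11.4 ± 0.462 CPM (SD, n = 2), a log2 change of 0.76 ± 0.11 (SE, adjusted p = 0.000208). The C1q genes rose as well: C1qa by 0.66 ± 0.10 (SE, adjusted p = 0.000176), C1qb by 0.57 ± 0.09 (SE, adjusted p = 0.000363) and C1qc by 0.60 ± 0.09 (SE, adjusted p = 0.000295). The growth factor receptor and the mannose receptor were also called, with smaller values. Csf1r changed by 0.36 ± 0.07 (SE, adjusted p = 0.00112), from 23.1 ± 0.612 CPM (SD, n = 2) to 29.6 ± 0.165 CPM (SD, n = 2). Mrc1 changed by 0.32 ± 0.06 (SE, adjusted p = 0.00103), from 54.9 ± 3.77 CPM (SD, n = 2) to 68.2 ± 0.546 CPM (SD, n = 2). The scarce receptors did not pass the test: Ccr2 had a log2 change of 0.22 (95% interval -0.29 to 0.74), Cx3cr1 of 0.54 (-0.02 to 1.09) and P2ry12 of 0.52 (-0.02 to 1.07). These intervals hold both 0 and the median change of the 10 genes, so a rise of that size was neither shown nor excluded. Cx3cr1 rested on 89 and 203 control reads, and on 172 and 217 reads from cKO testis. All called changes were under 2-fold. With 2 libraries a group, 89% of simulated 2-fold changes were recovered, but smaller changes were not simulated. Without limma's trend, 5 of the 10 were called, Mrc1 and Cd68 being lost.

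Against the Cre controls at P16, all 10 changes were again positive, with a median of 0.41 beside -0.04 over all genes, but only Mrc1 was called higher, and none lower. Over all 19200 genes, 4.30% were called higher and 4.77% lower. Mrc1 had a log2 change of 0.54 ± 0.10 (SE, adjusted p = 0.0367). Adgre1 (0.45 ± 0.15 (SE, adjusted p = 0.0751)), C1qa (0.43 ± 0.16 (SE, adjusted p = 0.0924)) and C1qb (0.37 ± 0.13 (SE, adjusted p = 0.0823)) had unadjusted p-values of 0.0194 to 0.0287. Csf1r, at 0.05, and Cd68, at 0.09, were near 0. The cKO libraries 1 and 2 are those of the comparison with controls, so the 2 results are not independent. The table also joins kits: cKO libraries 1 and 2 differ from all Cre controls in kit. With the kit as a covariate, which leaves cKO library 3 against the 4 Cre controls, Mrc1 had a log2 change of 0.44 with an adjusted p of 0.143 (limma), and none of the 10 was called. In that fit Ccr2, at -0.076, and P2ry12, at -0.031, were no longer positive. Of the Cre controls at P16, only library 1 shares its sequencing run with cKO library 3. Mrc1 also lost its call when cKO library 1 or 2 or any 1 of Cre control libraries 1 to 4 was left out, with log2 changes of 0.50 to 0.59. Leaving out cKO library 3 gave 4 called genes. Every cKO library then differs in kit from every Cre control, so that fit cannot separate genotype from kit. Within the second kit the single cKO library exceeded all 4 Cre controls for 4 of the 10 genes (Csf1r, Mrc1, Adgre1 and C1qb), where 24.0% of all genes did.

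In a fit over the P16 libraries of both control types with the kit as a covariate, 4 of the 10 were called higher and 0 lower, against 5.92% and 7.86% of 19932 genes. Mrc1 changed by 0.37 ± 0.08 (SE, adjusted p = 0.0161), Adgre1 by 0.56 ± 0.14 (SE, adjusted p = 0.0256), C1qa by 0.46 ± 0.14 (SE, adjusted p = 0.0448) and C1qb by 0.52 ± 0.11 (SE, adjusted p = 0.0142). The median of the 10 was 0.42, beside -0.02 over all genes. C1qc (0.44 ± 0.15 (SE, adjusted p = 0.0712)) and Csf1r (0.30 ± 0.11 (SE, adjusted p = 0.0826)) missed the threshold. The count fell to 0 without cKO library 1, to 1 without control library 1 or control library 2, and to 2 without cKO library 2 or 3, and it was 1 without limma's trend.

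**Figure D3:**
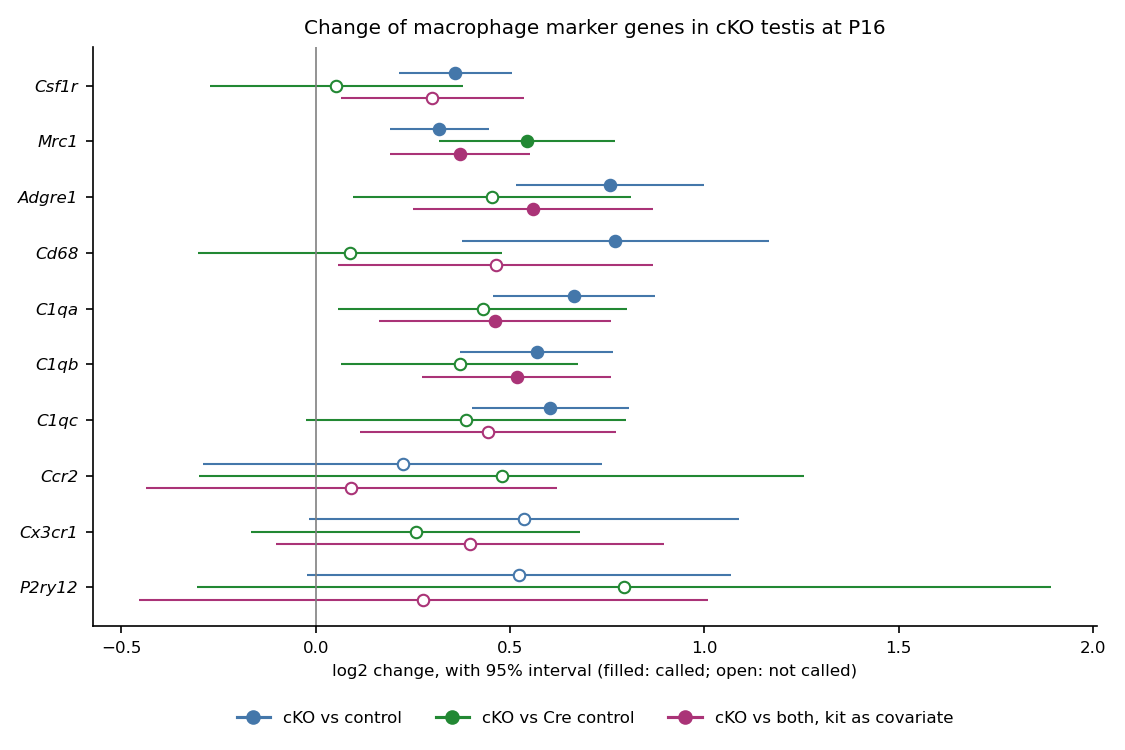
Log2 change of each gene at P16, with its 95% interval, in cKO against control (7 of 10 called), against Cre control (1 of 10) and against both control types with the kit as covariate (4 of 10). Filled points were called. In all 3 comparisons, each of the 10 points lies right of 0.

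At P14 the genes did not pass the test in any comparison. Against the controls, 2 of the 10 changes were positive, with a median of -0.12 and a range of -0.27 (C1qb) to 0.49 (P2ry12). The background was just as empty, at 0.00% of 17270 genes called higher and 0.00579% lower, the 1 called gene being Ythdc2. At an unadjusted p under 0.05 there were 0 of the 10 and 410 genes in all. DESeq2 called 6 genes in all and none of the 10. Against the Cre controls, 0.00% were called higher and 0.00% lower of 18196 genes. Here 9 of the 10 changes were positive, with a median of 0.34, and 2 had an unadjusted p under 0.05: Ccr2, at 2.28 ± 0.52 (SE, adjusted p = 0.479), and P2ry12, at 1.70 ± 0.39 (SE, adjusted p = 0.479). Only the cKO libraries brought Ccr2 past the filter on low values, since its Cre controls held 3 and 4 reads, so its value gives no support for a rise. Over all genes 705 had an unadjusted p under 0.05, and DESeq2 called 5, none of them among the 10. Within the second kit, the cKO library exceeded both Cre controls for 8 of the 10 genes, as did 30.6% of all genes. Cre control library 1 stood low also for Hsd3b1, a Leydig cell enzyme, at 42.9 CPM against 98.9 in library 2, and for Cyp17a1 at 0.122 against 1.89; the part of this in the result was not tested. Without cKO library 3, whose kit is that of the Cre controls, 4 of the 10 were called higher, and 6256 genes in all were called. In that fit genotype and kit cannot be told apart. In the fit over both control types, 0.00% and 0.00529% of 18892 genes were called, and none of the 10, whose median was 0.05; at an unadjusted p under 0.05 there were 1 of the 10 and 457 genes in all, and edgeR called 2 genes, none of them among the 10.

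Macrophage marker RNA was lower in control testis at P16 than at P14. In the first-kit controls, 6 of the 10 genes were called lower at P16 and 0 higher, where 6.24% of 18581 genes were called lower and 13.7% higher. The median of the 10 was -0.63, beside -0.01 over all genes, and all 10 changes were negative. For 7 of the 10 both P16 controls lay below both P14 controls, as for 29.2% of all genes. Cd68, the lysosomal marker, changed most, by -1.01 ± 0.17 (SE, adjusted p = 0.00308). Adgre1 changed by -0.82 ± 0.17 (SE, adjusted p = 0.00816), C1qb by -0.81 ± 0.15 (SE, adjusted p = 0.00454), C1qa by -0.77 ± 0.11 (SE, adjusted p = 0.00125), C1qc by -0.75 ± 0.09 (SE, adjusted p = 0.000535) and Csf1r by -0.51 ± 0.13 (SE, adjusted p = 0.0191). Mrc1 had a change of -0.29 ± 0.10 (SE, adjusted p = 0.0715) and was not called. Ccr2, Cx3cr1 and P2ry12 had changes of -0.35, -0.49 and -0.15. The count of called genes was 4 to 7 when each library was left out in turn. Markers of other cells moved with these genes in the same comparison: 5 of 5 erythroid genes were called lower, at -1.50 to -1.93, as were 4 of 6 peritubular myoid genes (median -0.44), 5 of 12 Sertoli genes (median -0.20), 3 of 8 endothelial genes (median -0.30) and 2 of 9 Leydig genes (median -0.27, with 1 called higher). The summed level of the erythroid genes was 104.4 to 126.4 CPM in the P14 controls and 34.4 to 37.8 CPM in the P16 controls, and that of the peritubular myoid genes 386.1 to 432.3 and 292.3 to 313.5 CPM. The summed level of the Leydig genes was 324.3 to 382.9 CPM at P14 and 285.4 to 292.97 CPM at P16. The part of these changes in the fall of the macrophage genes was not tested. The P16 controls that are low here are also the reference of the cKO comparison at P16, so these results share libraries.

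In cKO testis of the same kit 0 of the 10 genes were called by limma in either direction, whereas 14.2% of all genes were called higher and 16.5% lower. The median change of the 10 was 0.01. Cd68 had the lowest value, -0.49 ± 0.17 (SE, adjusted p = 0.0591), and C1qa, C1qb and C1qc lay at 0.01, 0.00 and -0.06. The 95% interval of the C1qc change ran from -0.27 to 0.14, which does not hold the control's -0.75. By limma, Cd68 alone had an unadjusted p under 0.05, and edgeR called 0 of the 10.

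The difference between the stages in the cKO effect was tested as an interaction over the 8 first-kit libraries. It was called higher for 4 of the 10 genes and lower for 0, against 2.25% and 6.35% of 18581 genes. These were Adgre1 (0.93 ± 0.24 (SE, adjusted p = 0.0439)), C1qb (0.81 ± 0.21 (SE, adjusted p = 0.0449)), C1qa (0.78 ± 0.16 (SE, adjusted p = 0.0191)) and C1qc (0.69 ± 0.13 (SE, adjusted p = 0.0149)). All 10 values were positive, with a median of 0.59 beside -0.04 over all genes. Csf1r (0.41 ± 0.18 (SE, adjusted p = 0.186)), Mrc1 (0.33 ± 0.14 (SE, adjusted p = 0.179)) and Cd68 (0.52 ± 0.25 (SE, adjusted p = 0.212)) were not called. The calls rest on single libraries: 0 were called without control library 2 of P14 or of P16, 1 without control library 1 of P16 or cKO library 1 or 2 of P16, and 0 without limma's trend. P14 control library 2 stood apart in MHC class II genes, with H2-Aa at 7.59 CPM against 1.25 in library 1 and Cd74 at 16.2 against 4.98; the part of this in the interaction was not tested beyond leaving the library out.

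In the Cre controls of the second kit no fall was called. Of the 10 genes, 1 was called higher at P16 and 0 lower, against 9.36% and 2.08% of 18975 genes, and the median of the 10 was 0.08. The called gene was Ccr2, at 1.92 ± 0.39 (SE, adjusted p = 0.0111), from 3 and 4 reads at P14 to 15 to 23 at P16; it was not called with no filter on low values or without Cre control library 1 of P14. Both P14 Cre controls lay under the filter of 10 reads for Ccr2. The gene was thus tested only through libraries where it was higher, so its call gives little support for a rise. Cx3cr1 had a change of 1.07 ± 0.35 (SE, adjusted p = 0.0786). Adgre1 (-0.01), C1qa (0.10), C1qb (0.05) and C1qc (-0.11) were near 0. Whether the stage change differs between the control types was not tested, since kit and control type cannot be told apart. With the sequencing run as a covariate, Ccr2 had a log2 change of 2.17 and an adjusted p of 0.0388 (limma).

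**Figure D4:**
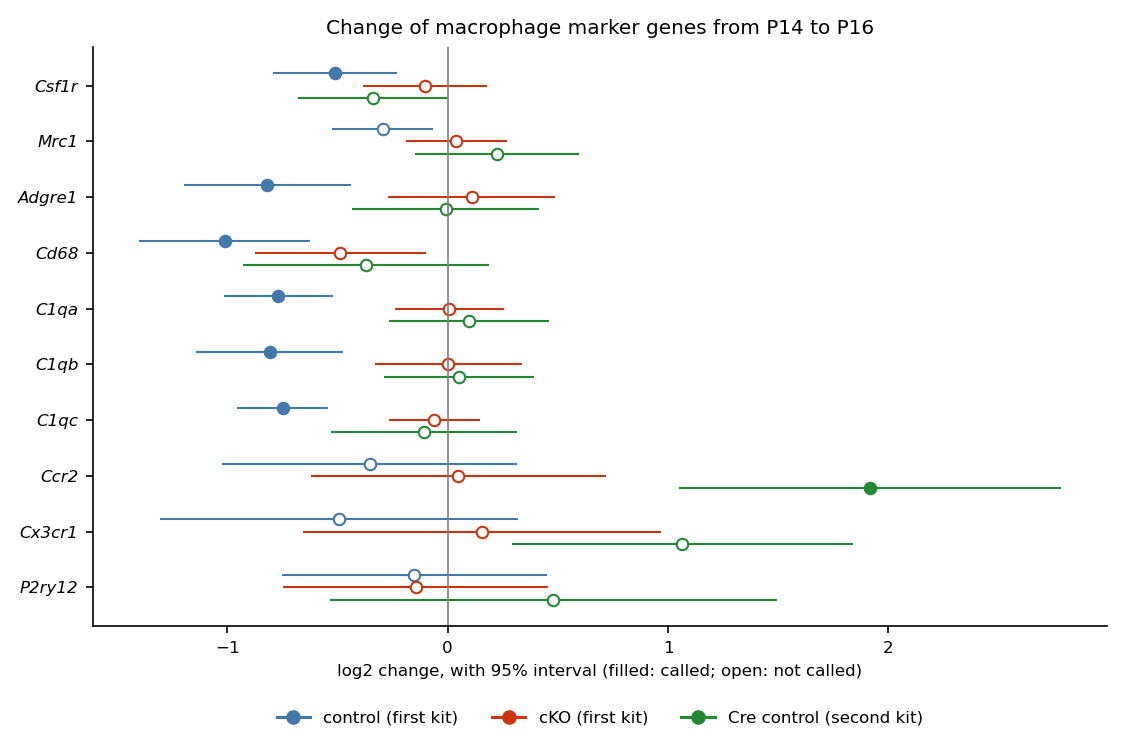
Log2 change of each gene from P14 to P16, with its 95% interval, in controls and cKO of the first kit and in Cre controls of the second. Filled points were called: 6 fell in controls, none in cKO, and Ccr2, with 3 and 4 reads at P14, was called higher in Cre controls.

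Other genes of macrophages were higher in cKO testis too. Of 32 further macrophage genes, 30 were tested in cKO against control at P16. Of these, 16 were called higher and 0 lower, where 18.6% of all genes were called higher and 19.9% lower. All 30 changes were positive, with a median of 0.60. Cybb, the catalytic subunit of the phagocyte oxidase, changed by 0.88 ± 0.13 (adjusted p = 0.000268), the lysozyme gene Lyz2 by 0.88 ± 0.09 (adjusted p = 2.04e-05) and Cd53, a leukocyte tetraspanin, by 0.88 ± 0.18 (adjusted p = 0.00234). Against the Cre controls 0 of 30 were called by limma and by edgeR and 3 by DESeq2, all higher. The median was 0.27, with an unadjusted limma p under 0.05 for 7. With the kit as covariate 5 were called higher, against 5.92% of all genes, and 0 lower. Fcgr3, an Fc receptor of phagocytes, stood there at 0.67 ± 0.16 (adjusted p = 0.0211). In controls from P14 to P16, 12 of 30 were called lower and 0 higher (Lyz2 -1.35 ± 0.19 (adjusted p = 0.000925)), against 6.24% and 13.7% of all genes. In cKO 1 was called in each direction, against 14.2% higher and 16.5% lower over all genes. The interaction was called higher for 7 of 30 (2.25% of all genes), with Ctss, a lysosomal protease of antigen-presenting cells, at 1.17 ± 0.19 (adjusted p = 0.00739). The summed level of these 32 genes was 174.1 to 177.8 CPM in the P16 controls, 250.3 to 268.4 in the P16 cKO libraries of the first kit, 258.4 to 269.5 in the P14 controls and 228.2 to 281.0 in the P14 cKO libraries.

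Of the 5 monocyte genes tested in cKO against control at P16, 2 were called higher and 0 lower, where 18.6% of all genes were called higher. Plac8 changed by 1.35 ± 0.18 (adjusted p = 0.000102) and F13a1, a coagulation factor subunit also made by tissue macrophages, by 0.44 ± 0.09 (adjusted p = 0.00149). F13a1 alone was called against the Cre controls, at 0.53 ± 0.12 (adjusted p = 0.0433), and with the kit as covariate both were called higher.

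A list of 7 genes held ligands of the receptors described here and related chemokine genes, and 5 of them were tested. In cKO against control at P16, 3 of the 5 were called higher, where 18.6% of all genes were. Csf1, the main growth factor for the receptor encoded by Csf1r, changed by 0.77 ± 0.11 (adjusted p = 0.000120), from 10.3 and 12.6 to 20.47 and 18.5 CPM. Ccl12, a ligand of the CCR2 receptor, changed by 1.73 ± 0.52 (adjusted p = 0.0193), and Ccl8, a related chemokine gene, by 1.60 ± 0.29 (adjusted p = 0.000971). Il34, the other growth factor for the Csf1r product, stood at 0.337 to 1.25 CPM over the 16 libraries. Against the Cre controls 1 of the 5 tested was called higher (4.30% of all genes), and with the kit as covariate 3 of the 5 (5.92% of all genes). The gene called against the Cre controls was Ccl12, at 1.72 ± 0.33 (limma, adjusted p = 0.0379). Over the second-kit libraries alone Ccl12 missed the filter on low values. It may therefore have been tested at P16 mainly through cKO libraries, where it was higher, so this call gives little support for a rise.

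Of 15 complement genes other than C1q, 13 were tested in cKO against control at P16. Of these, 7 were called higher and 0 lower, with a median of 0.39, where 18.6% of all genes were called higher and 19.9% lower. C3ar1, the receptor for the C3a fragment, changed by 1.08 ± 0.19 (adjusted p = 0.000783), C4b by 1.06 ± 0.19 (adjusted p = 0.000824) and C2 by 0.69 ± 0.15 (adjusted p = 0.00258). The proteases that C1q activates, C1ra and C1s1, changed by 0.42 ± 0.06 (adjusted p = 0.000246) and 0.39 ± 0.05 (adjusted p = 0.000108). In the comparison with the Cre controls 0 of the 13 were called by limma, 1 by edgeR and 5 by DESeq2, all higher, with an unadjusted limma p under 0.05 for 7, and C4b (-0.30) and C3 (-0.54) had the opposite sign. With the kit as covariate 5 were called higher (5.92% of all genes) and 0 lower, and C4b was not among them (0.74 ± 0.25, adjusted p = 0.0733). Of the 7 MHC class II genes, which present antigen to T cells, 0 were called in either direction, with a median of 0.18, and their summed level was 22.7 to 23.9 CPM in the P16 controls and 21.1 to 30.9 in the P16 cKO libraries of that kit. By limma, 1 of the 7 (Cd74) had an unadjusted p under 0.05, and edgeR and DESeq2 each called 0.

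Some markers of other testis cells were also called. In cKO against control at P16, where 18.6% of all genes were called higher, 9 of 12 Sertoli cell genes were called higher (median 0.29), 5 of 9 Leydig cell genes (median 0.28), 2 of 8 endothelial genes (median 0.17) and 1 of 6 peritubular myoid genes (median 0.02), with 0 called lower in any of these lists. The endothelial and peritubular shares lie near that of all genes. With the Cre controls as reference, 1 of 12 Sertoli genes was called higher (Kitl, at 0.69 ± 0.15, adjusted p = 0.0413), while Amh (-0.67), Sox9 (-0.60) and Gata4 (-0.32) had negative values. None of the Leydig, endothelial and peritubular genes was called there by limma or edgeR, and 1 Leydig and 1 endothelial gene were by DESeq2, with an unadjusted limma p under 0.05 for 1, 1 and 0 genes. With the kit as covariate, 5 of 12 Sertoli genes were called higher. Against control, Kitl, a growth factor made by Sertoli cells, changed by 0.49 ± 0.06 (adjusted p = 4.16e-05) and Srd5a1, a steroid reductase, by 0.53 ± 0.09 (adjusted p = 0.000858). The summed level of the 12 Sertoli genes ran from 4008 to 4236 CPM in controls and from 4849.9 to 5366 in cKO libraries 1 and 2. Among the lists, interferon response genes had the highest median against control, 1.95, with 13 of 13 called higher, led by Ifit1 at 2.54 ± 0.20 (adjusted p = 1.82e-06), an antiviral RNA-binding protein. With the Cre controls as reference, 1 of 13 was called higher (Ifit2, at 1.17 ± 0.27, adjusted p = 0.0436), with a median of 0.88 and Stat2 at -0.03, and with the kit as covariate 10 of 13 were, with a median of 1.23. Their summed level was 88.2 to 96.1 CPM in the P16 controls and 194.9 to 200.3 in the P16 cKO libraries of that kit. The part of these changes in the result for the macrophage genes was not tested.

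**Figure D5:**
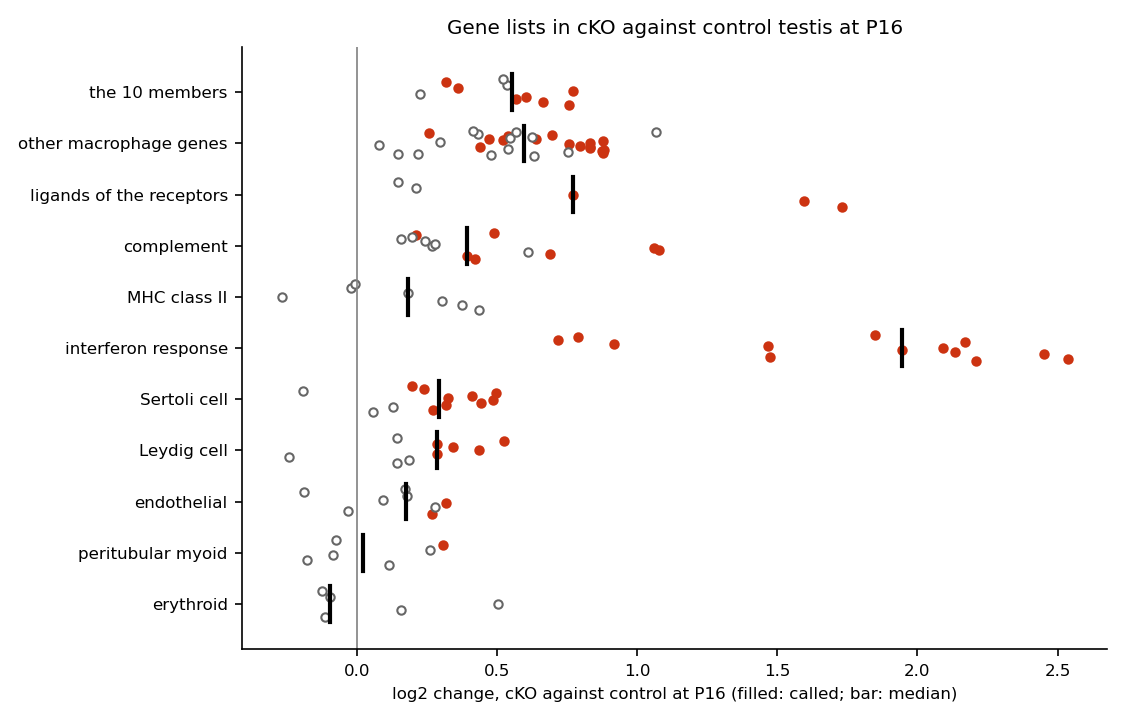
Log2 change of each tested gene of 11 lists in cKO against control at P16; filled points were called, black bars are medians. The median of the 10 macrophage genes (0.55) lies beside that of the other macrophage genes (0.60), above the Sertoli (0.29) and Leydig (0.28) medians and below the interferon response median (1.95).

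How alike the 10 genes were across libraries was described by correlation over the 16 libraries, each gene's log2 level being centred within its kit and divided by its standard deviation. With the mean of the other 9, C1qa had a Pearson r of 0.85, Adgre1 of 0.84, C1qb of 0.80 and C1qc of 0.77. Mrc1 (0.69), Cd68 (0.69) and Cx3cr1 (0.54) followed, with Csf1r at 0.44, Ccr2 at 0.38 and P2ry12 at 0.35. Among the 18023 genes compared, those outside the list with the highest r with the mean of the 10 included Ctsc (0.93), a lysosomal protease, Ddr2 (0.92), a collagen receptor, Gm43679 (0.90) and Sulf2 (0.90), which removes sulfate from heparan chains. The Spearman rho of these genes was 0.74 to 0.93. The points share libraries, depth and groups, so these values describe the libraries and carry no p.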

How the data were processed

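The authors deposited 4 tables, 1 for each stage and control type. The deposited signal was made by the authors by dividing each gene's reads by a library size factor. In each of the 20 columns, 100% of nonzero entries corresponded to a whole number of reads (tolerance 0.1 reads), and these reads were recovered. The submitters' processing notes name Trim Galore, STAR, HTSeq, DESeq2 and GRCm39, without versions, and the strand setting is not given in the sources used here. The column names carry the suffix of STAR's gene counts, and the 4 STAR summary rows stayed out of the fits. The cKO libraries 1 and 2 stand in both tables of their stage and were counted once. Names, exon lengths and overlaps come from GENCODE M21, which names 52081 of the 55414 IDs.

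Comparisons within a table used limma 3.58.1 (R 4.3.3, eBayes with trend) on log2(value + 1), for genes reaching 10 in 2 or more libraries, a scale that understates changes of low genes. Comparisons across tables or stages used limma on log2 CPM (edgeR 4.0.16, TMM, prior count 1) of genes reaching 10 reads in 2 or more libraries. P-values were adjusted by Benjamini-Hochberg over all genes tested, at 0.05. Errors of log2 changes are standard errors. The fits were tested on simulated data. DESeq2 1.42.0 and edgeR's quasi-likelihood test were alternatives, with other scalings, pseudocounts, filters, a replicate block, kit or run as covariate, and the omission of single libraries.

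Where an omission left 1 library in an arm, that library was assumed to vary like the others. The 10 genes and all lists were chosen with earlier results of these data known. All 10 genes are named. From each other list, up to 3 called genes with the largest change are named, as are genes among the 5 outside the list with the highest correlation with the mean of the 10; some genes that these rules select are not reported here. Il34, C1ra, C1s1, Tmem119, Siglech, Ly6c2, Fcer1a, Ly6g, H2-Aa, Cd74, Hsd3b1, Cyp17a1, Hbb-bs, Cxcl10, Ciita, C3, Amh, Sox9, Gata4 and Stat2 were named after their values were seen.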

Additional observations from a re-analysis of the deposited data

Results flagged for a closer look

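C1qb in the P16 Cre controls was marked by 1 library far from the others: Cre control library 2 stood at 18.3 CPM and the other 3 at 14.03 to 14.3, a gap of 0.933 of the group's range, above the limit of Dixon's test for 4 samples. Chance marks about 1 in 20 groups, and 10 were examined, 1 for each gene. That library was also the highest P16 Cre control for Csf1r, Mrc1, Adgre1, C1qa and C1qc.

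The difference between the cKO effect at P16 and that at P14 was called for 4 of the 10 genes by the test of the difference itself: Adgre1 at 0.93, C1qa at 0.78, C1qb at 0.81 and C1qc at 0.69 on the log2 scale. None of the 4 kept its call in every fit that left out 1 library.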

How the results depend on the processing

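In cKO against control at P16 the count of called genes was 5 to 8 of 10 under every alternative run, none lower. Against the Cre controls at P16 (1 called higher) it was 2 with quantile scaling and with DESeq2, and 0 without trend. It was 0 with a replicate block, 0 with the kit as covariate and 0 to 4 when libraries were left out (4 without cKO library 3). At P14 (0 called) it was 5 with the replicate block, which drops cKO library 3. There it was 0 to 4 with libraries left out (4 without cKO library 3). In the fit over both control types at P16 (4 called) it was 1 without trend, 2 with the replicate block and 0 to 5 with libraries left out. For the interaction (4 called) it was 2 with no filter, 0 without trend and 0 to 6 with libraries left out. From P14 to P16, 0 to 1 were called higher and 0 to 1 lower in cKO with libraries left out, and in the Cre controls (1 called higher) 0 with no filter and 0 to 3 with libraries left out. The causes were not tested.

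Signs turned only for values that were not called. Against the Cre controls at P16 with the kit as covariate, Ccr2 was -0.076 and P2ry12 -0.031, and Csf1r ran from -0.032 to 0.12 with libraries left out. Leaving out libraries, the control stage change ran from -0.84 to 0.10 for Ccr2, -1.01 to 0.012 for Cx3cr1 and -0.41 to 0.10 for P2ry12, and the interaction from -0.038 to 0.90 for Ccr2 and -0.23 to 0.28 for P2ry12. Over all genes, calls at P16 against controls fell from 6939 to 1806 without trend and to 4591 without control library 1; against the Cre controls 1741 became 0 to 9427, in the fit over both control types 2745 became 687 at the lowest, for the interaction 1598 became 185 to 3180, in the control stage change 3705 became 1617 at the lowest, in the cKO one 5689 became 3519, and in that of the Cre controls 2172 became 49. At P14 against controls, 1 became 0 to 11, and against the Cre controls 0 became 5 by DESeq2, 6966 with the replicate block and 6256 without cKO library 3. Same-numbered libraries deviated together with r of 0.20 at P14 and 0.08 at P16 against controls, and of -0.23 to 0.30 against the Cre controls, so the numbers were not taken as pairs. Few reads limit Ccr2, P2ry12 and Cd68.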

Other observations

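Not all macrophage-associated genes kept their level in cKO testis between the stages. Fcgr3, a low-affinity Fc receptor of phagocytes, stood at 9.11 to 9.84 CPM in cKO libraries 1 and 2 at P14 and at 18.0 to 19.5 CPM at P16, a log2 change of 0.98 (limma, adjusted p = 9.2e-05), and it was the single one of 30 other macrophage genes called higher. In the controls it stood at 9.82 to 10.2 CPM at P14 and 10.5 to 10.6 at P16. Stab1, a scavenger receptor, was the single one called lower in cKO, at -0.53 (adjusted p = 0.00697), and it was lower in the controls too, at -0.75 (adjusted p = 0.00185).

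Genes used as microglial markers moved in both directions in cKO against control at P16. Those called higher included Fcrls, at 0.44, and Olfml3, at 0.37, while Sall1, a transcription factor, was called lower, at -0.70 (limma, adjusted p = 0.00177). Sall1 stood at 8.02 and 6.65 CPM in the P16 controls and at 4.73 and 4.23 CPM in cKO libraries 1 and 2. Fcrls, Olfml3 and Sall1 were called neither against the Cre controls at P16 nor with the kit as covariate. Against the Cre controls they stood at 0.29, 0.28 and -0.06, and with the kit as covariate at 0.47, 0.28 and -0.16.

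Control library 2 at P14 stood apart in interferon and MHC class II genes, with Cxcl10 at 2.68 CPM against 0.178 in library 1 and Ciita at 2.81 against 0.222. Its levels of Ccr2 and Cx3cr1 were the highest of the first kit. Cre control library 4 at P16 held Hbb-bs, a haemoglobin gene, at 85.5 CPM against 11.6 to 18.7 CPM in the other 3, while its Mrc1 level lay within their range.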
